A study of Mus musculus with 6 samples.

Results

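The genes described here are 10 mouse genes of iron and heme handling, Hmox1, Blvrb, Fth1, Ftl1, Slc40a1, Cp, Tfrc, Slc11a2, Slc11a1 and Spic, chosen by name and read in every library of an expression table of 23946 genes. All 10 were present and all passed an expression limit of 1 FPKM (fragments per kilobase of transcript and per 1000000 aligned fragments) in at least 1 library, as 13064 genes of the table did. The study asked how macrophages of the omentum, a fat-rich abdominal tissue that ovarian cancer cells colonize, differ from those of mesenteric fat and how they change once tumor cells arrive. Macrophages gated as CD45+CD11b+F4/80+ were sorted from the omentum (OM) and the mesentery (MY) of C57BL/6 mice (substrain C57BL/6NHsd, female, 6 to 8 weeks old), from naive mice and from mice 24 h or 7 d after intraperitoneal injection of 1000000 ID8 cells, a mouse ovarian carcinoma line. Each of the 6 conditions had 1 library, made from the tissues of 3 pooled mice, and the mice numbered 9 in all. The labels give the mice no engineered allele. The reference groups are labelled naive, and no library from mice injected with the vehicle was analysed here. With 1 library per condition there is no replicate error and no p-value, and every difference below is a difference between libraries.

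Macrophages take iron from transferrin through the transferrin receptor (Tfrc) and from engulfed red cells. The heme of these cells is opened by heme oxygenase 1 (Hmox1) to biliverdin, which is then reduced to bilirubin. Blvrb encodes a biliverdin reductase. Iron leaves the endosome through Slc11a2 (DMT1) and the phagosome through Slc11a1 (NRAMP1), and is stored in ferritin, a shell of heavy (Fth1) and light (Ftl1) chains. It leaves the cell through ferroportin (Slc40a1), the known mammalian iron exporter, while the ferroxidase ceruloplasmin (Cp) oxidizes it for loading onto transferrin. Spic is a transcription factor required for the red pulp macrophages of the spleen, which recycle iron from aged red cells, and it is induced by heme. Many of these messages carry an iron-responsive element, an RNA hairpin bound by iron regulatory proteins when iron is low: in a 5′ untranslated region the binding blocks translation, and in the 3′ untranslated region of Tfrc it keeps the message from decay. RNA levels therefore do not read out ferritin or ferroportin protein.

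Because this hairpin joins several of the genes, the protein-coding transcripts of GENCODE M1 were searched, in the direction of transcription, for its core, an unpaired C, 5 stem bases, the loop CAGTGN and 5 bases complementary to the first 5, with G to T pairs allowed. Of 22754 genes searched, 280 (1.23%) had such a core with all 5 pairs and 2185 (9.60%) had 1 with at least 4. Among the 10 genes, Fth1, Ftl1, Slc40a1 and Tfrc held cores with all 5 pairs. Each is printed with the loop in capitals and the flanking bases, which include the stem, in lower case, 5′ to 3′ on the transcript, as read from the NCBIM37 genome (mm9):
Fth1, 5′ untranslated region, exon 1, plus strand, chr19:10057221-10057250: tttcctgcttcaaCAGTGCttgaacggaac
Ftl1, 5′ untranslated region, exon 1, minus strand, chr7:52715149-52715178: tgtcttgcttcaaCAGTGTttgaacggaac
Slc40a1, 5′ untranslated region, exon 1, minus strand, chr1:45982310-45982339: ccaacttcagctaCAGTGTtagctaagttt
Tfrc, 3′ untranslated region, exon 19, plus strand, chr16:32631304-32631333: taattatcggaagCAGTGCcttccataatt
Tfrc, same exon and strand, chr16:32631683-32631712: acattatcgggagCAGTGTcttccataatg
Tfrc, same exon and strand, chr16:32631748-32631777: tctatatcggagaCAGTGAtctccatatgt
Tfrc, same exon and strand, chr16:32631795-32631824: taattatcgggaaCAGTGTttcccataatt
The hairpins of both ferritin chains share the 5 stem bases on each side of the loop, and Tfrc was the gene of the 10 with more than 1 core. At 4 of 5 pairs, Slc11a2 added a match in its 3′ untranslated region, which is known to carry an element in some isoforms, and Slc11a1 a match inside its coding region. No match was found in Hmox1, Blvrb, Cp or Spic. A match is a description of the letters, and protein binding was not measured.

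The libraries differed in ways that touch the results below. Relative depth, read from the smallest FPKM steps, ran from 0.856 to 1.49 times that of naive MY, and the summed FPKM of a library from 526890 to 713860. The sort markers Ptprc, Itgam and Emr1 (the gene of F4/80) were expressed in all 6 libraries. The summed FPKM of 9 macrophage markers, among them Csf1r, Cd68, Mertk, C1qa and Lyz2, was 9191 in naive OM, 37710 in 24 h OM and 8029 in 7 d OM, against 4319, 6947 and 4135 in the MY libraries in the same order. All 9 of these markers were at least 2-fold higher in 24 h OM than in naive OM, with a median log2 difference of 2.33, and 6 of 9 were in 24 h MY against naive MY, with a median of 1.29. The 24 h OM library therefore stands apart in its macrophage marker level. In bulk RNA, more macrophages in the sorted cells cannot be told apart from more RNA of these markers per cell. Cd74, a gene abundant in antigen-presenting cells, is listed at 0 in 24 h OM, against 11323 to 26905 in the others. The B cell gene Cd79a stood at 391.9 in 24 h OM, and the reason for the 0 of Cd74 was not tested.

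Markers of other cells were present as well. Over the 8 neutrophil genes in the table, the summed FPKM was 7277 to 19292 in OM and 230.4 to 859.9 in MY. S100a8, at 3020 to 8381 in OM and 32.1 to 287.9 in MY, was among the granule and S100 genes that carried the sum, while the receptor gene Csf3r overlapped between tissues, at 6.21 to 24.1 and 5.99 to 13.4. Lists of 6 fibroblast genes (221.5 to 1190 in OM, 2.08 to 3.10 in MY) and 7 mesothelial and epithelial genes (92.4 to 987 in OM, 0.920 to 1.20 in MY) were far higher in OM. The B cell list ran from 902.7 to 3958 in OM and 521.6 to 1532 in MY, the T cell list from 22.4 to 87.5 and 378.6 to 838.3, and the NK cell list from 28.6 to 305.1 and 765.1 to 1489. The 8 dissociation-induced genes, such as Fos and Jun, summed to 2741 to 4518 in OM and 251.1 to 285.4 in MY. Their part in the results below was not tested.

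Hmox1 (chr8:77617490-77624495 in mm9, plus strand, 5 exons) had an FPKM of 29.5 in naive OM, 136.5 in 24 h OM and 15.4 in 7 d OM, and of 52.8, 102.4 and 32.4 in naive, 24 h and 7 d MY. The 24 h library was the highest of its tissue and the 7 d library the lowest, in omentum and mesentery alike, and the ranges of the tissues overlapped. The 24 h level was 4.62 times the naive level in OM (log2 difference 2.17, on log2(FPKM + 1) here and below) and 1.94 times in MY (0.94), and the 7 d level was 0.520 times naive in OM (-0.90) and 0.614 times in MY (-0.69). Hmox2, the constitutive heme oxygenase, ran from 72.4 to 135.6 over the 6 libraries. Hmox1 exceeded Hmox2 only in 24 h OM, where the ratio of their FPKM was 1.14, and in the other 5 libraries it was 0.212 to 0.755.

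Blvrb (chr7:28232997-28251163, plus strand, 5 exons), a biliverdin reductase gene, gave 56.4, 165.6 and 38.6 FPKM in naive, 24 h and 7 d OM and 118.7, 197.0 and 95.0 in MY. It followed the order of Hmox1 in each tissue, and at each time the omental library was below the mesenteric one. The difference between tissues was 2-fold or more in naive mice (log2 difference -1.06) and at 7 d (-1.28) but not at 24 h (-0.25). Blvra, the other biliverdin reductase, ran from 38.4 to 86.1 FPKM, and Blvrb exceeded it by a ratio of 1.004 to 1.92 in OM and 1.92 to 2.89 in MY.

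The ferritin genes were among the most abundant transcripts of every library. Fth1 (chr19:10057193-10059582, plus strand, 4 exons) gave 3979, 7737 and 3527 FPKM in naive, 24 h and 7 d OM and 3424, 4505 and 3340 in MY, and ranked between 7 and 9 among expressed genes. Ftl1 (chr7:52713314-52715254, minus strand, 4 exons) gave 3900, 11241 and 2819 in OM and 5670, 8552 and 5111 in MY, with ranks between 3 and 11. Both genes were highest at 24 h in each tissue and overlapped between tissues. The highest library of Fth1 was 2.32 times its lowest, and that of Ftl1 3.99 times. Together they made up 1.27%, 2.66% and 1.13% of the summed FPKM in naive, 24 h and 7 d OM and 1.73%, 2.28% and 1.58% in MY.

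The balance of the chains differed between tissues. The ratio of Fth1 to Ftl1 FPKM was 1.02 in naive OM, 0.688 in 24 h OM and 1.25 in 7 d OM, and 0.604, 0.527 and 0.654 in MY. All 3 OM libraries were above all 3 MY libraries, and in each tissue the 24 h library was the lowest. Ratios within a library do not depend on how it was scaled. They do depend on how reads were assigned: 4 other loci in the mm9 genome shared stretches of at least 75 bases at 98% identity or more with the Ftl1 transcript, covering 96.0% of its 968 bases, so the level of Ftl1 is uncertain. Fth1 had no such locus.

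Slc40a1, the exporter (chr1:45964915-45982439, minus strand, 8 exons), gave 2.98, 8.61 and 5.35 FPKM in naive, 24 h and 7 d OM and 15.0, 33.0 and 23.0 in MY. Every MY library was above every OM library, and in each tissue the order was naive, 7 d, 24 h from low to high. The omental level was 0.199 times the mesenteric level in naive mice (log2 difference -2.01), 0.261 times at 24 h (-1.82) and 0.233 times at 7 d (-1.92). Set against Csf1r, the receptor that maintains macrophages, Slc40a1 stood at 1.51% to 5.20% of its FPKM in OM and 10.5% to 12.4% in MY.

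Cp (chr3:19857054-19909145, plus strand, 20 exons) gave 2.64, 16.4 and 10.2 FPKM in naive, 24 h and 7 d OM and 11.7, 34.1 and 21.8 in MY. It kept the same time order as Slc40a1 in each tissue and was lower in the omentum at every time, though 24 h OM lay above naive MY, so the tissues overlapped. Its 24 h level was 6.22 times naive in OM (log2 difference 2.26) and 2.93 times in MY (1.47). At 7 d it was still 3.85 times naive in OM (1.62) and 1.87 times in MY (0.85).

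Spic (chr10:88137517-88147760, minus strand, 6 exons) gave 1.10, 6.12 and 0.985 FPKM in naive, 24 h and 7 d OM and 32.3, 40.3 and 22.9 in MY. Its highest library was 40.9 times its lowest, the widest range of the 10 genes, and the lowest MY library was well above the highest OM library. In naive mice the omental level was 0.0341 times the mesenteric one (log2 difference -3.99). As a share of Csf1r FPKM, Spic was 0.834% to 1.07% in OM and 11.9% to 26.7% in MY. A 341-base part of its 1763-base transcript, 19.3%, matched 5 other loci, which leaves most of the transcript free of such copies.

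Because Spic and Slc40a1 mark iron-recycling macrophages in the spleen, 4 other genes known from such cells, Vcam1, Siglec1, Treml4 and Cd5l, were read beside them. Their summed FPKM was 23.0, 87.8 and 23.8 in naive, 24 h and 7 d OM and 98.9, 267.2 and 143.5 in MY, with every MY sum above every OM sum. Of the 4, Treml4 overlapped between tissues, at 8.95, 28.2 and 9.26 in OM and 17.9, 24.3 and 21.0 in MY, its 24 h OM library being the highest of all 6. Cd5l, a secreted protein of tissue macrophages, gave 5.97, 16.5 and 1.40 in OM and 29.8, 103.3 and 47.7 in MY. Vcam1, an adhesion molecule, gave 5.94, 25.5 and 10.3 in OM and 33.1, 93.5 and 49.0 in MY. Another list, of resident tissue macrophage genes (Timd4, Lyve1, Folr2, Mrc1, Vsig4), gave 211.5, 376.5 and 34.5 in OM and 41.1, 84.8 and 45.4 in MY, higher in OM in naive mice and at 24 h and lower at 7 d. Their part in the tissue difference of Spic and Slc40a1 was not tested.

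**Figure D1:**
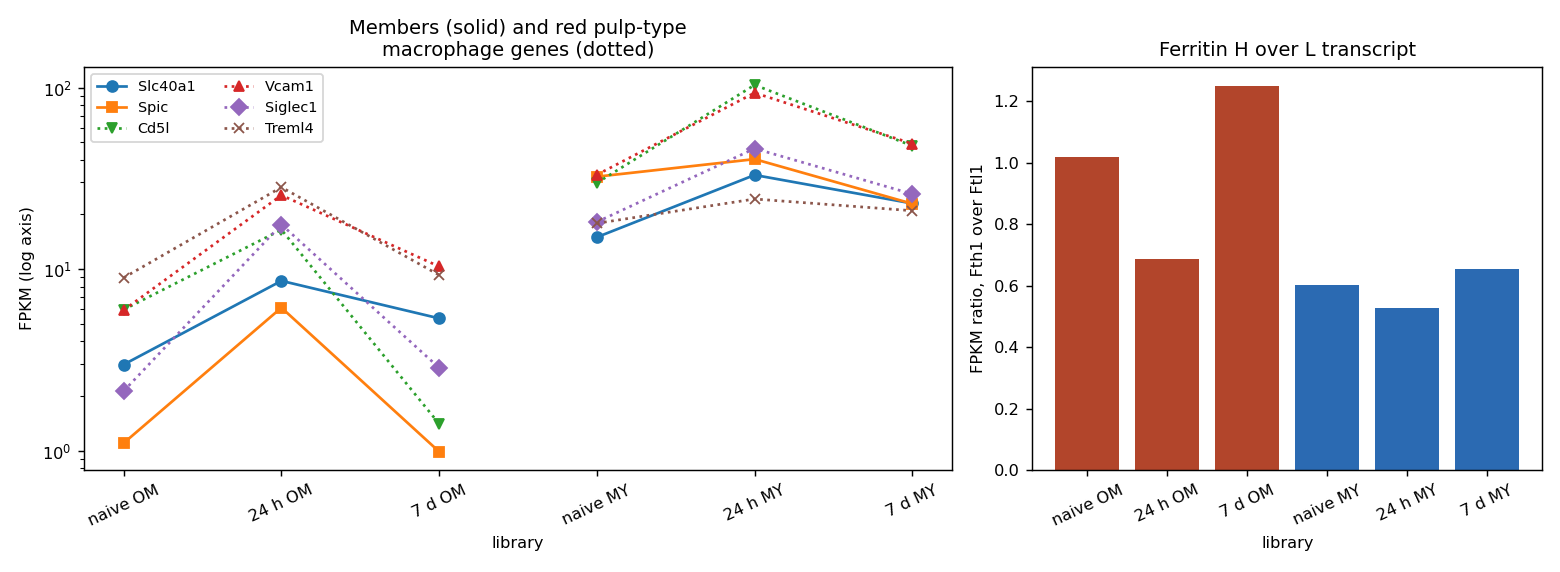
Left, FPKM on a log axis of Slc40a1 and Spic (solid lines) and of 4 red pulp-type macrophage genes (dotted lines) in the 6 libraries, 1 library per point. Right, the ratio of Fth1 to Ftl1 FPKM in each library, on an axis from 0. Slc40a1 and Spic lie higher in all 3 mesenteric libraries than in any omental one, and the ferritin ratio lies at 0.688 or above in OM and at 0.654 or below in MY.

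Slc11a1, which moves metal ions out of the phagosome (chr1:74421777-74432636, plus strand, 15 exons), gave 43.6, 209.2 and 29.5 FPKM in naive, 24 h and 7 d OM and 31.2, 82.9 and 45.9 in MY. The 24 h library was the highest in both tissues and the tissues overlapped. Its 24 h level was 4.80 times naive in OM (log2 difference 2.24) and 2.65 times in MY (1.38). As a share of Csf1r FPKM it stayed between 28.7% and 36.7% in OM and between 23.9% and 26.5% in MY, a narrower range than its own 7.09-fold spread.

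Slc11a2, the endosomal and cell surface transporter (chr15:100218329-100255503, minus strand, 16 exons), gave 7.59, 14.9 and 10.6 FPKM in OM and 17.3, 16.3 and 18.9 in MY. Every MY library was above every OM library, though 24 h OM and 24 h MY were close and the difference reached 2-fold only in naive mice (log2 difference -1.09). The mesenteric libraries differed little among themselves, with log2 differences from naive of -0.08 at 24 h and 0.13 at 7 d.

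Tfrc (chr16:32609006-32632880, plus strand, 19 exons) gave 8.70, 4.72 and 9.40 FPKM in naive, 24 h and 7 d OM and 4.14, 4.75 and 6.43 in MY. It was the member whose 24 h level in OM was below naive, at 0.543 times (log2 difference -0.76), and in MY its 24 h level was 1.15 times naive (0.16). Its largest difference was 0.92 between naive OM and naive MY, under 2-fold on the log2(FPKM + 1) scale though the plain ratio was 2.10, and with a pseudocount of 0.1 it was 1.05 and passed. Tfrc is also high in dividing cells, and 5 proliferation genes (Mki67, Top2a, Cdk1, Ccnb1, Birc5) summed to 65.9, 137.6 and 88.9 FPKM in OM and 75.3, 39.8 and 91.4 in MY. In OM the sum was highest at 24 h, where Tfrc was lowest, and in MY it was highest at 7 d, where Tfrc was highest. Birc5 alone gave 74.9 of the 137.6 in 24 h OM. The part of dividing cells in the level of Tfrc was not tested.

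**Figure D2:**
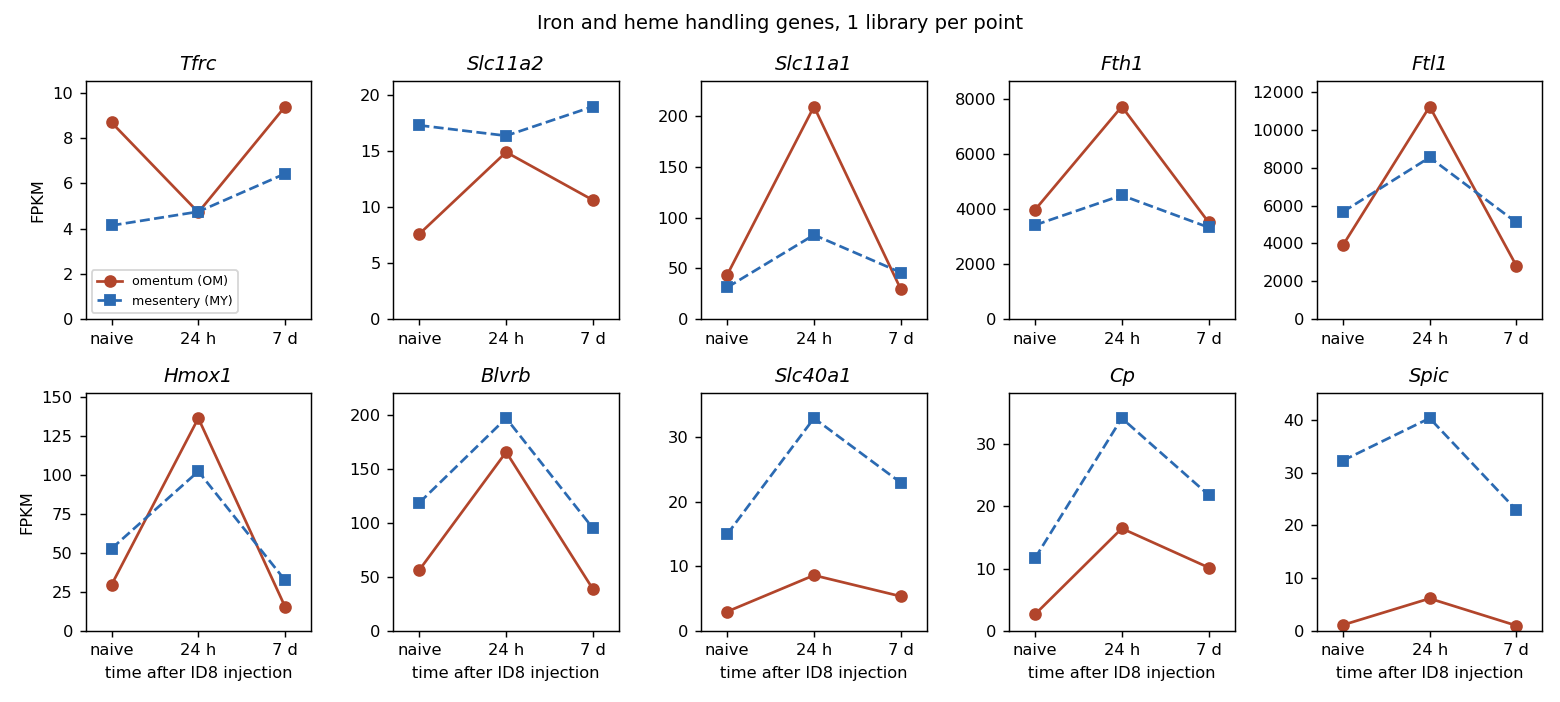
FPKM of the 10 genes in the naive, 24 h and 7 d libraries of omentum (OM, circles) and mesentery (MY, squares), 1 library per point, each panel on its own axis from 0. In OM every gene but Tfrc peaks at 24 h. Slc40a1, Slc11a2 and Spic lie lower in every OM library than in any MY library.

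In naive mice, 5 of the 10 genes were at least 2-fold lower in omental than in mesenteric macrophages, Slc40a1, Slc11a2, Spic, Blvrb and Cp, and none was 2-fold higher. Over all expressed genes, 8.05% were lower and 8.18% higher by that measure, so the members stood lower more often than the table as a whole did. The median log2 difference of the members was -0.94, against 0.01 for all expressed genes. Tfrc (0.92), Slc11a1 (0.47) and Fth1 (0.22) were the members with higher values in naive OM.

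At 24 h after injection, 7 of 10 genes were at least 2-fold higher in OM than in naive OM, Hmox1, Slc40a1, Ftl1, Slc11a1, Spic, Blvrb and Cp, beside 11.9% of all expressed genes, and none was lower beside 6.45%. Fth1 (0.96) and Slc11a2 (0.89) came close to 2-fold. The median log2 difference was 1.53 over the members and 0.00 over all expressed genes. In MY, 3 of 10, Slc40a1 (1.09), Slc11a1 (1.38) and Cp (1.47), were at least 2-fold higher at 24 h than in naive MY, beside 2.80% of all expressed genes, and none was lower beside 1.52%. The median there was 0.66. Of the 10 genes, 9 had a log2 difference above 0 at 24 h in each tissue, all but Tfrc in OM and all but Slc11a2 in MY.

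At 7 d, Cp alone was at least 2-fold higher than naive in OM, with a background of 11.0%, and no member was lower, with a background of 1.96%. In MY no member reached 2-fold in either direction, where 0.498% of all expressed genes were higher and 2.29% lower. The members' medians were -0.13 in OM and 0.05 in MY. The 24 h and the 7 d comparisons of a tissue share its naive library, so they are not independent.

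Between tissues at 24 h, Slc11a1 was higher in OM (1.32) and Slc40a1 (-1.82), Spic (-2.54) and Cp (-1.01) were lower, beside 13.9% higher and 10.2% lower over all expressed genes. The members' median was -0.07. At 7 d, 5 members were lower in OM, Hmox1 (-1.03), Slc40a1 (-1.92), Spic (-3.59), Blvrb (-1.28) and Cp (-1.03), beside 4.99% of all expressed genes, and none was higher beside 14.1%. The median of the members was again -0.94. Cp at 24 h and both Hmox1 and Cp at 7 d stood close to the 2-fold limit. With median-ratio rescaling they were at -0.99, -0.96 and -0.96, and with a pseudocount of 5 at -0.87, -0.88 and -0.82, short of it.

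Taking the 3 time points of each tissue together, 3 members (Slc40a1, Slc11a2 and Spic) were lower in all OM than in all MY libraries and none was higher. Over all expressed genes 17.7% were lower without overlap and 16.7% higher. At 3 of 10 in total, this count is near the background of both directions together and is no result about the members as a set. Without the 24 h libraries, 9 members did not overlap, Fth1 and Tfrc higher in OM and all others but Slc11a1 lower, where 2 libraries against 2 gave 25.1% higher and 26.0% lower over all expressed genes. The time points are different conditions, not replicates.

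**Figure D3:**
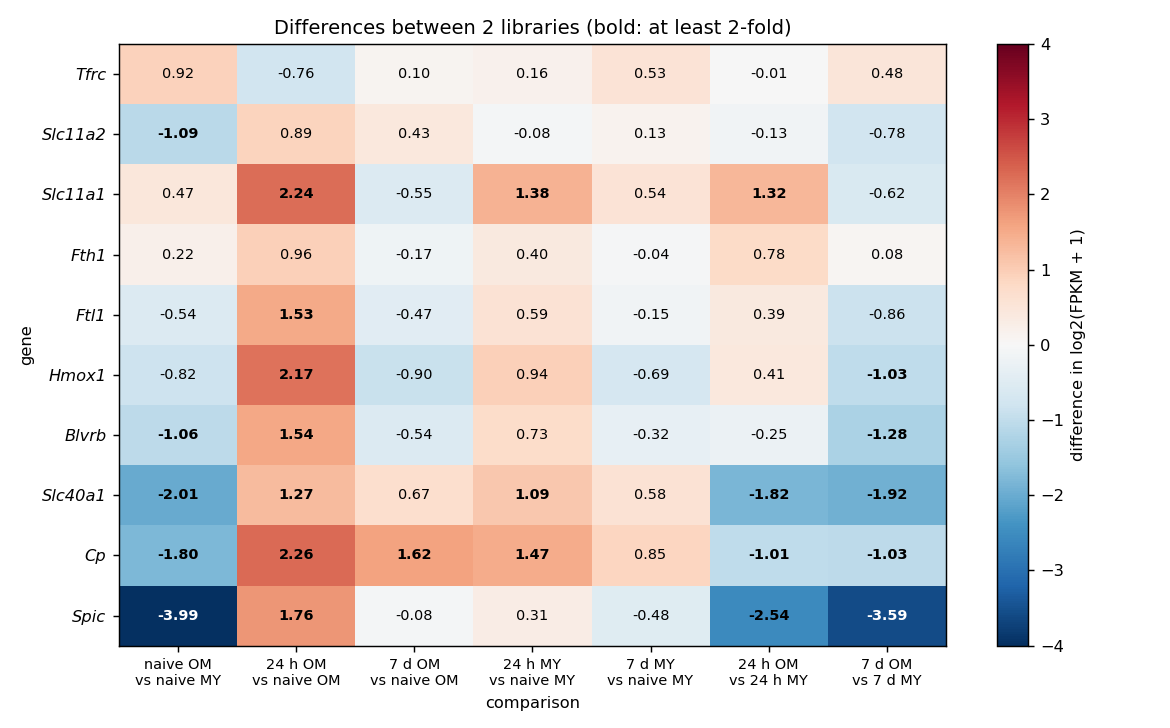
Differences in log2(FPKM + 1) of the 10 genes (rows, by role) in the 7 comparisons of libraries (columns), red for higher and blue for lower in the first-named library, with bold values where the difference was at least 2-fold. The 24 h OM against naive OM column holds 7 bold positive values, and the columns that set OM against MY hold bold negative values for Slc40a1, Cp and Spic throughout.

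The macrophage markers had a median log2 difference of 2.33 between 24 h and naive OM, and no member exceeded it, the largest being 2.26 for Cp. When libraries were rescaled to an equal mean log2 level of the 9 macrophage markers, none of the members was 2-fold higher in 24 h OM than in naive OM and 3 were lower, Fth1 (-1.35), Slc11a2 (-1.13) and Tfrc (-2.41), beside 1.03% of all expressed genes higher and 74.7% lower. The rescaling lowered the median of all expressed genes in this comparison by 1.77 on the log2 scale. On this scale Slc11a1 (-0.05), Hmox1 (-0.10), Spic (0.10) and Cp (0.26) lay nearest to 0, where Slc40a1 was at -0.57, Blvrb at -0.74 and Ftl1 at -0.78. The rescaling takes about the markers' own difference from every gene, so with the values as deposited no member could have stayed 2-fold higher. It takes less from low genes such as Slc40a1, because 1 is added before the log. The rescaled values therefore give no order among members of unlike level. The plain ratios of 24 h OM to naive OM were 2.89 for Slc40a1, 2.94 for Blvrb and 2.88 for Ftl1. In MY the same rescaling left Cp (0.49), Slc11a1 (0.36) and Slc40a1 (0.10) above 0 at 24 h, and Slc11a2 alone was past 2-fold, at -1.06, beside 37.3% of all expressed genes lower. At 7 d in OM it gave Slc40a1 (1.03) beside Cp (2.01) as 2-fold higher, with a background of 16.8%. Whether the cells of the 24 h OM library changed or a larger part of them were macrophages cannot be told apart here.

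The tissue differences of Slc40a1 and Spic were larger in naive mice under that rescaling, at -2.57 and -4.63 where they had been -2.01 and -3.99. The rescaling lowers naive OM against naive MY, with a move of -0.47 in the median of all expressed genes. A gene lower in OM was therefore bound to stand lower still. In all, 7 members were then lower in every OM library than in any MY library and none was higher. These were Hmox1, Slc40a1, Ftl1, Slc11a1, Spic, Blvrb and Cp. Over all expressed genes on that scale, 10.5% were lower and 5.16% higher. At 24 h the rescaling moved the median of all expressed genes by -1.36 in OM against MY. The count rests in part on this move. As a share of Csf1r FPKM, Slc11a1 was higher in every OM library (28.7% to 36.7%) than in any MY library (23.9% to 26.5%). On that share Hmox1 overlapped, at 14.95% to 23.97% in OM and 16.87% to 43.65% in MY, and so did Cp. Slc40a1, Spic and Blvrb stayed lower in every OM library, and Ftl1 was not set against Csf1r. Rescaled Slc40a1 ran from 2.06 to 8.26 in OM and 26.0 to 35.6 in MY, and rescaled Spic from 1.31 to 1.52 in OM and 34.1 to 56.0 in MY. Slc11a2 lost its separation, at 3.56 to 16.4 in OM and 13.8 to 30.0 in MY.

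**Figure D4:**
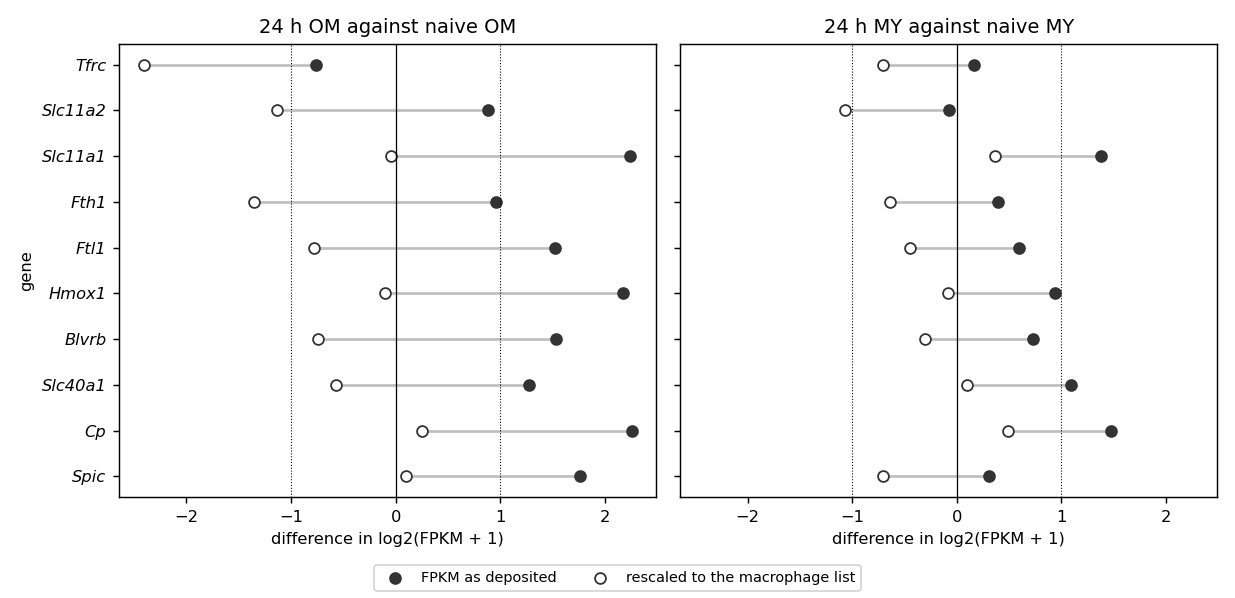
Difference in log2(FPKM + 1) between 24 h and naive libraries for the 10 genes, as deposited (filled) and after rescaling libraries to the 9 macrophage markers (open), for omentum (left) and mesentery (right), with dotted lines at 2-fold. In OM the 9 filled points above 0 all move left, and Spic and Cp alone remain above 0, at 0.10 and 0.26.

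Red cells are a source of heme and of hemoglobin messages, and the study lysed them before the sort. The erythroid list summed to 35.1, 2.63 and 144.2 FPKM in naive, 24 h and 7 d OM and 100.4, 431.2 and 221.2 in MY. Hemoglobin genes carried these sums in all libraries but 24 h OM, where Epor, the erythropoietin receptor gene, gave 1.76, while Slc4a1, the anion exchanger of the red cell membrane, was at 0.0344 FPKM or less in every library. The sum was lowest in the OM library with the highest Hmox1 and highest in the MY library with the highest Hmox1. The split between Hba-a1 and Hba-a2, and between the Hbb genes, is uncertain because these copies are nearly identical. The part of red cell uptake in the levels of the 10 genes was not tested.

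Another 67 iron and heme genes of the table were read as 6 lists, of which 59 were expressed. Counted over all lists, 10 of 59 were at least 2-fold higher and 3 lower in naive OM than in naive MY, beside 8.18% and 8.05% of all expressed genes. In OM, 14 were higher and none lower at 24 h against naive (background 11.9% and 6.45%), and 11 were higher and 2 lower at 7 d (11.0% and 1.96%). In MY these counts were 6 and 2 at 24 h (2.80% and 1.52%) and 2 and 3 at 7 d (0.498% and 2.29%). Between tissues 18 were higher and 4 lower in OM at 24 h (13.9% and 10.2%), and 14 and 1 at 7 d (14.1% and 4.99%).

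Among the 14 expressed genes of heme uptake, transport and sensing, 3 were at least 2-fold higher in naive OM, Hp, Cd163 and Lrp1, and 2 lower, Hebp1 and Abcg2. Hp, which encodes haptoglobin, the plasma binder of free hemoglobin, gave 72.8, 187.9 and 166.2 FPKM in OM and 21.5, 40.9 and 13.0 in MY. Cd163, the receptor for haptoglobin-hemoglobin, gave 18.2, 21.0 and 3.13 in OM and 1.33, 5.67 and 3.77 in MY, the omental level at 7 d being below naive by 2.22 on the log2 scale. Lrp1, the receptor for hemopexin-bound heme, gave 13.3, 36.3 and 16.0 in OM and 2.42, 8.27 and 2.70 in MY. Abcg2, a transporter that exports porphyrins, gave 1.18, 6.99 and 8.75 in OM and 4.84, 6.58 and 8.11 in MY.

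Within the same list, Slc48a1, which carries heme out of the phagolysosome, gave 54.7, 104.3 and 79.3 FPKM in OM and 27.4, 38.9 and 35.4 in MY. Nfe2l2, which encodes the oxidative stress regulator NRF2, an activator of Hmox1, gave 39.7, 105.8 and 73.4 in OM and 35.3, 39.8 and 37.4 in MY. Its 24 h level was 2.66 times naive in OM (log2 difference 1.39) and 1.13 times in MY (0.17). Slc46a1, a heme and folate carrier, gave 1.40, 15.9 and 8.63 in OM and 1.09, 2.87 and 1.71 in MY, and Hebp1, a heme-binding protein, 1.34, 5.36 and 0.941 in OM and 15.3, 10.2 and 4.79 in MY.

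Of the 11 expressed genes of iron uptake and reduction, 5 were higher and none lower in naive OM than in naive MY. Trf, which encodes transferrin, gave 278.3, 646.2 and 241.2 FPKM in OM and 115.1, 316.5 and 189.1 in MY, with at least a 2-fold higher level at 24 h in both tissues. Lactoferrin (Ltf) gave 213.2, 522.8 and 516.5 in OM and 30.0, 8.84 and 0.0848 in MY, and Lcn2, which captures bacterial siderophores, 370.1, 798.6 and 723.7 in OM and 49.5, 19.3 and 2.05 in MY. Both are neutrophil granule genes, and the neutrophil marker sum was likewise higher in OM. Steap4, a metalloreductase, gave 4.20, 2.12 and 13.9 in naive, 24 h and 7 d OM and 0.988 or less in MY.

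None of the 6 expressed genes of the storage, chaperone and export list reached 2-fold against the naive library of its tissue. Ncoa4, the receptor that delivers ferritin to autophagy, was lower in all OM libraries, at 13.9, 22.9 and 23.2 FPKM, than in MY, at 24.0, 28.3 and 24.7. The iron regulatory protein genes ran from 15.0 to 23.1 (Aco1) and from 5.77 to 6.52 (Ireb2). Hfe, a partner of the transferrin receptor, gave 40.5, 125.3 and 33.8 in OM and 37.6, 82.3 and 42.9 in MY, higher at 24 h in each. Hamp, which encodes the iron hormone hepcidin, was at 1.19 FPKM in 24 h MY and below 1 elsewhere, and its paralog Hamp2 is listed at 0 throughout, though reads of these near-identical genes may be split. Neo1, a receptor of the hepcidin pathway, gave 1.94, 3.42 and 11.7 in OM and 0.120, 0.360 and 0.262 in MY. Alas1, the first enzyme of heme synthesis, gave 27.3, 56.4 and 35.4 in OM and 25.2, 33.2 and 31.1 in MY, and Alad, the second, 9.35, 20.2 and 26.1 in OM and 7.38, 5.90 and 8.60 in MY. Of the 11 iron-sulfur and mitochondrial iron genes, Iscu, the assembly scaffold, was lower in OM, at 102.8, 173.1 and 144.2 against 232.7, 358.0 and 220.6.

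The genes whose pattern over the 6 libraries lay nearest to a member were found among 7998 genes with at least 10 FPKM somewhere, by the root mean square difference of centred log2 values. Among the nearest to Hmox1 were Asprv1 (0.38) and the member Blvrb (0.39). Nearest to Slc40a1 were Tspan3 (0.21), Vcam1 (0.27) and 1700003F12Rik (0.30). Nearest to Spic were Gm13710 (0.33), the liver X receptor gene Nr1h3 (0.54) and Epb4.1l3 (0.55). Nearest to Cp were Il18bp (0.18), Efna2 (0.36) and Plekhg5 (0.39), and nearest to Tfrc were B3gnt2 (0.05), Abhd14a (0.08) and D10Wsu102e (0.09). With 6 libraries and so many candidates, near patterns are found for most genes, and the likeness is a description.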

How the data were processed

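Per the study's methods, paired-end reads of 75 bases were checked with FastQC 0.11.4, aligned to mm9 with STAR 2.4.2a against UCSC gene models, and normalized by the authors to FPKM with Cufflinks. The deposited FPKM table (23946 genes, 6 libraries) was used as given, and raw counts were not used here. Differences were taken on log2(FPKM + 1), which understates those of low genes, over the 13064 genes that reached 1 FPKM in any library, and called at 2-fold or more, in Python 3.11.15 with pandas 2.3.3. No statistical test was run. The calling script was tested on simulated data. Other iron and heme genes are named at 2-fold and at least 10 FPKM in 1 of the libraries compared, or where listed at 0. Blvra, Hmox2, Ncoa4, Aco1, Ireb2 and Hamp were named outside that rule, after their values were seen. Abcg2, at 8.75 FPKM or less in every library, was also named outside it. Some list genes and near patterns are not reported here. Members and lists were chosen with earlier results of these data known. Flvcr1 and Flvcr2 were read under their older symbols. Gene positions and hairpins came from GENCODE M1 on NCBIM37, the mm9 assembly, though not the authors' gene models. Near-identical loci were found with blastn 2.17.0. Pseudocounts of 0.1 and 5, 2 other filters, 3 rescalings and each time point left out were tried.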

Additional observations from a re-analysis of the deposited data

Results flagged for a closer look

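3 members differed in the direction of change between tissues, and with 1 library per condition these differences were not tested. Slc11a2 was higher at 24 h than in naive OM by a log2 difference of 0.89, where MY gave -0.075. Tfrc gave -0.76 at 24 h in OM and 0.16 in MY. Slc11a1 gave -0.55 at 7 d in OM and 0.54 in MY. None of these 6 values reached 2-fold.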

How the results depend on the processing

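No paired analysis was possible because single libraries stand for the conditions. Of 350 differences of single genes recomputed under pseudocounts of 0.1 and 5 and 3 rescalings, 309 moved by less than 1.5-fold with direction kept for called values, 35 moved further and 6 reversed. Only values of at least 2-fold as deposited were counted as reversed, and smaller ones that changed sign stand in the other counts. Among the 35, Fth1 in 24 h OM against naive OM went from 0.96 to -1.35, and Hmox1 in 24 h OM against 24 h MY from 0.41 to -1.38, both under macrophage rescaling. The 6 reversals all came from rescaling to the macrophage markers: in 24 h OM against naive OM, Hmox1 became -0.10, Slc40a1 -0.57, Ftl1 -0.78, Slc11a1 -0.046 and Blvrb -0.74, and in 24 h OM against 24 h MY, Slc11a1 became -0.47. Under that rescaling the members at least 2-fold apart numbered 3 in 24 h OM against naive OM, 2 in 7 d OM against naive OM, 1 in 24 h MY against naive MY and 9 in 24 h OM against 24 h MY. These 9 were all lower in OM, and the share over all expressed genes was not counted for that comparison. The rescaling moved the median of all expressed genes there by -1.36, so the count is no result about the members. Between tissues 7 members did not overlap, all lower in OM, beside 10.5% of all expressed genes. That count rests in part on the same move at 24 h. With a pseudocount of 5 the count was 0 in 7 d OM against naive OM and 3 in 7 d OM against 7 d MY, where median-ratio rescaling also gave 3. The shares over all expressed genes were not counted under those settings, so these counts are no result about the members. Without the 24 h time point, 9 members did not overlap between tissues, Fth1 and Tfrc higher and 7 lower in OM, beside 25.1% and 26.0% of all expressed genes. The other 48 of 57 recomputed counts stayed within 1.5 times. Rescaling to an equal sum moved the median of all expressed genes by -0.28 to 0.13 and changed no member's direction among called values. Depth per gene is unknown from FPKM, so Spic in OM, near 1 FPKM, is imprecise.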
